A study of Mus musculus with 6 samples.

Results

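Levels of 10 genes used as markers of macrophages and other leukocytes (Csf1r, Lyz2, Cd68, Adgre1, C1qa, Cd14, Tyrobp, Fcer1g, Cd74 and Ptprc) were measured in cultures of primary mouse keratinocytes, the epidermal cells of newborn skin grown without immortalization. The genes were taken by symbol from a count table of 55367 gene names, and all 10 were found. Cells came from day 2 pups of mixed C57BL/6 and 129/Sv background that carried 2 floxed copies of Ppp1r13l, the gene encoding iASPP, with exon 8 between loxP sites, and a tamoxifen-inducible Cre recombinase expressed from the ROSA26 locus in all cell types. Each of 3 batches held a culture with tamoxifen (iASPP KO) and a culture without it (iASPP WT), which gave 6 libraries, 3 per condition and 2 per batch. The medium was changed after 24 h, when tamoxifen was added to the KO cultures, and cells were kept for 4 days. The iASPP WT cultures carried the same floxed alleles and the same Cre, and received no tamoxifen, so the drug and the deletion cannot be told apart. A batch is what the labels call one, shared by a KO and a WT culture. Whether the pair came from 1 preparation of cells, and from how many pups, is not given in the sources used here.

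Macrophages are phagocytes that reside in most tissues, skin included, and all leukocytes descend from blood-forming stem cells, whereas keratinocytes are epithelial. The markers differ in what they do. Csf1r encodes the receptor for the growth factors CSF1 and IL-34, on which macrophages depend for survival. Lyz2 encodes lysozyme, an enzyme that breaks bacterial cell walls. Cd68 encodes a glycoprotein of lysosomes, and Adgre1 encodes F4/80, a surface receptor of mouse macrophages. C1qa encodes a chain of C1q, which starts the classical complement pathway. Cd14 encodes a co-receptor for bacterial lipopolysaccharide. Tyrobp (DAP12) and Fcer1g (the common gamma chain of Fc receptors) are adaptors that pass receptor signals to the kinase SYK. Cd74 encodes the invariant chain that escorts MHC class II molecules, and Ptprc encodes CD45, a phosphatase on the surface of nearly all leukocytes. In mouse epidermis the resident leukocytes are Langerhans cells and gamma delta T cells, while macrophages and mast cells lie mainly in the dermis.

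Libraries held 20202517 to 25157117 counts over exons, in which 20187 to 22621 gene names were detected. Ppp1r13l, counted over all its exons, was lower in KO than in WT in each batch, at 14.2 against 32.6, 17.7 against 45.1 and 5.90 against 21.0 CPM in batches 1, 2 and 3. CPM are counts scaled to a common library size of 1e+06 after TMM normalization, and 3 counts, taken as the limit that a count of 0 allows, were worth 0.123 to 0.140 CPM. The 2 cultures of batch 3 stood apart from the other 4 in fibroblast markers. The summed level of 7 fibroblast genes was 33.9 to 52.3 CPM in batches 1 and 2 and 459 to 673 CPM in batch 3. The summed level of 10 keratinocyte genes, led by Krt14, was 31639 to 39226 CPM over the 6 cultures, yet 6 of the 10 (Itga6, Itgb4, Cdh1, Col17a1, Perp and Dsp) were lower in batch 3 than in batch 1 and 3 (Cdh1, Perp and Dsp) lower than in batch 2 (edgeR). Over all 14916 genes tested, 8.4% were lower in batch 3 than in batch 1 and 10.1% lower than in batch 2. The summed level of 7 melanocyte genes was 893 and 1124 CPM in the KO and WT cultures of batch 1, 430 and 367 in batch 2, and 1064 and 1051 in batch 3. In edgeR 5 of the 7 were lower in batch 2 than in batch 1, where 0.322% of tested genes were. Batch 3 was higher than batch 2 for 5, where 7.39% were, and higher than batch 1 for 1, where 5.26% were.

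All 10 genes had counts in at least 2 cultures, from 17 counts in all for Cd74 to 3888 for Cd68. Per kilobase of exon, the mean level over the 6 libraries was highest for Cd68, at 22.6 CPM per kb, and next for Lyz2, at 15.1. Csf1r followed at 2.26 and Cd14 at 1.45, and Tyrobp, Fcer1g, C1qa and Adgre1 lay between 0.962 and 0.229 CPM per kb. Cd74 and Ptprc were lowest, at 0.0726 and 0.0555. This order was not sharp: in each of the 9 pairs of neighbours the ranges over libraries overlapped, and Cd68 exceeded Lyz2 in 4 of the 6 libraries and lay below it in the other two, both of batch 3. For 6 of the 10 genes at least 1 library had no count. A filter on low counts (filterByExpr by condition, which asks for about 10 counts in 3 libraries) kept 7 of the 10 in the test and left out C1qa, Tyrobp and Cd74.

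**Figure D1:**
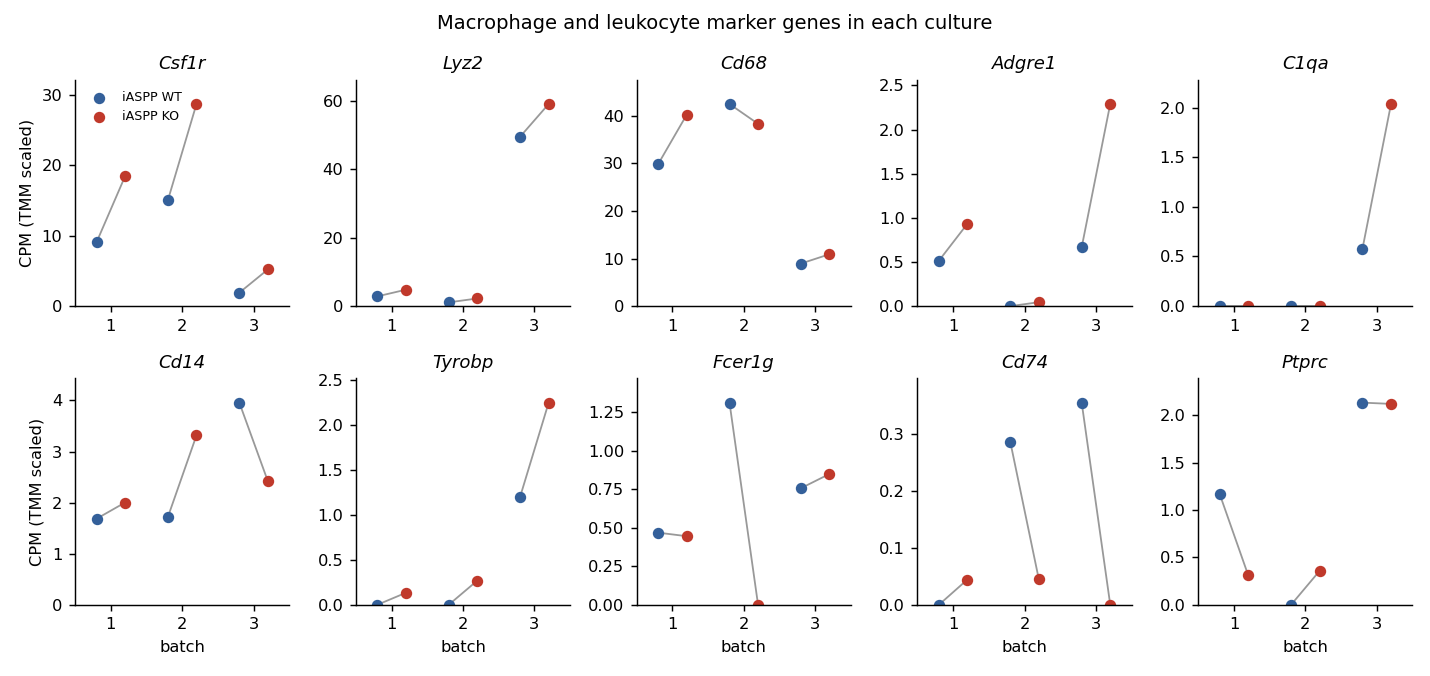
Each panel plots 1 marker gene, with the batch on the x axis and the level in TMM-scaled CPM on the y axis, from 0; blue points are iASPP WT cultures, red points iASPP KO cultures, and a line joins the 2 cultures of a batch. Lyz2, C1qa, Tyrobp and Ptprc had both batch 3 cultures above the other 4, Csf1r and Cd68 had both below, and Csf1r had its KO culture above its WT culture in all 3 batches.

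Lyz2 and Cd68, the markers of highest mean level, ran in opposite directions between batches. The rank of Lyz2 rested on batch 3, since per kb it was at 2.91 CPM in batch 1, close to the 2.38 of Csf1r, and at 1.27 CPM in batch 2, below Csf1r at 3.79 and Cd14 at 1.45, against 41.2 in batch 3. Lyz2 is on the minus strand of chr10:117277331-117282321. Its levels were 4.80 and 2.85 CPM in the KO and WT cultures of batch 1, 2.24 and 1.11 CPM in those of batch 2, and 59.0 and 49.5 CPM in those of batch 3. Both cultures of batch 3 were thus far above the other 4, with no overlap. In edgeR's quasi-likelihood fit with batch and condition, Lyz2 was higher in batch 3 than in batch 1 by 3.87 (SE 0.26) on the log2 scale, a 14.6-fold difference (adjusted p = 2.88e-05), and higher than in batch 2 by 5.08 (SE 0.29, adjusted p = 1.03e-05). Of its 42-base windows, the length of a read, 21.3% also occur in transcripts of another gene, its close paralog Lyz1, which had 11 counts in the KO culture of batch 3 and none in the other 5 libraries.

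Cd68, on the minus strand of chr11:69664213-69666153, was at 40.2 and 29.8 CPM in the KO and WT cultures of batch 1, 38.3 and 42.4 CPM in those of batch 2, and 10.9 and 8.94 CPM in those of batch 3. Here both cultures of batch 3 were the lowest. The difference of batch 3 from batch 1 was -1.81 (SE 0.21, adjusted p = 0.000570) and from batch 2 -2.04 (SE 0.21, adjusted p = 0.000211) on the log2 scale, that is 3.51 and 4.10 times lower. Relative to Lyz2, the level of Cd68 per kb was 8.75 to 40.2 in batches 1 and 2 and 0.189 to 0.193 in batch 3, so the 2 genes did not keep 1 ratio across cultures.

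The sequences before the starts of these 2 genes are shown because these markers of highest mean level ran in opposite directions. They come from RefSeq (GRCm38.p6), whose table of promoters held 4 of the 10 genes, and are written 5′ to 3′ on the gene's strand. Capitals mark GAGGAA, a sequence recognised by PU.1, a transcription factor of macrophages, and TGANTCA, a site of AP1 factors. Each was searched on both strands in the 250 bases before the start, and no other form of either site was searched. The Cd68 window, chr11:69666171-69666420, held GAGGAA 225 bases and TGANTCA 149 and 24 bases before the RefSeq start. Between this window and the gene as bounded in the count table lie 17 bases. The Lyz2 window held neither, and only its 201 bases outside the gene as bounded in the count table, chr10:117282322-117282522, are printed. GAGGAA was present in 23.3% and TGANTCA in 6.75% of 32851 such windows, so a match is a description and not a site of binding, and the absence of one says only that these letters are not in this window.
Lyz2: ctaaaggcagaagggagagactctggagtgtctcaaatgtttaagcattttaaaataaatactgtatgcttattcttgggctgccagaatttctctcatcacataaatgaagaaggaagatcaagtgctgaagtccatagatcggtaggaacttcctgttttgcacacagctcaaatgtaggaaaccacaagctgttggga
Cd68: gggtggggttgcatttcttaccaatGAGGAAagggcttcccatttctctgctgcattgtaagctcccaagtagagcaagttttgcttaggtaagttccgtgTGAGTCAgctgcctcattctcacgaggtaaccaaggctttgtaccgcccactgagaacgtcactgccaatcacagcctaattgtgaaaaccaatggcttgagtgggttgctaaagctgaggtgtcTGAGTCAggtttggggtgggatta

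Csf1r was the marker whose level differed between KO and WT. Its counts were 415 and 194 in the KO and WT cultures of batch 1, 641 and 368 in those of batch 2, and 123 and 43 in those of batch 3, or 18.5 and 9.07, 28.7 and 15.1, and 5.22 and 1.91 CPM. The KO culture was above its WT partner in each batch, while the ranges of the 2 conditions overlapped, since the KO culture of batch 3 lay below the WT cultures of batches 1 and 2. The mean was 17.5 ± 11.8 CPM in KO and 8.69 ± 6.59 CPM in WT (SD, n = 3 each). With batch in the model, Csf1r rose in KO by 1.11 (SE 0.21) on the log2 scale, a 2.16-fold difference (edgeR, adjusted p = 0.0206).

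For Csf1r the KO to WT ratios of the 3 batches were 2.03, 1.91 and 2.73, with exact 95% intervals of 1.71 to 2.42, 1.67 to 2.17 and 1.91 to 3.96 that cover counting error only. Whether Csf1r passed the threshold depended on the batches kept, while the size of its difference changed little. Without batch 1 the log2 difference was 1.16 with an adjusted p of 0.0612, without batch 2 it was 1.22 with 0.112, and without batch 3 it was 0.98 with 0.000436 (edgeR). Over all tested genes, 323 were called higher in KO in the full fit, and 169, 174 and 793 without batches 1, 2 and 3. Without the batch term the difference was 1.01 and the adjusted p 0.977. Csf1r is on the plus strand of chr18:61100598-61132149, and 0.19% of its read-length windows occur in another gene. In bulk RNA, fewer cells of a type and less RNA per cell cannot be told apart, here and in all results that follow.

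**Figure D2:**
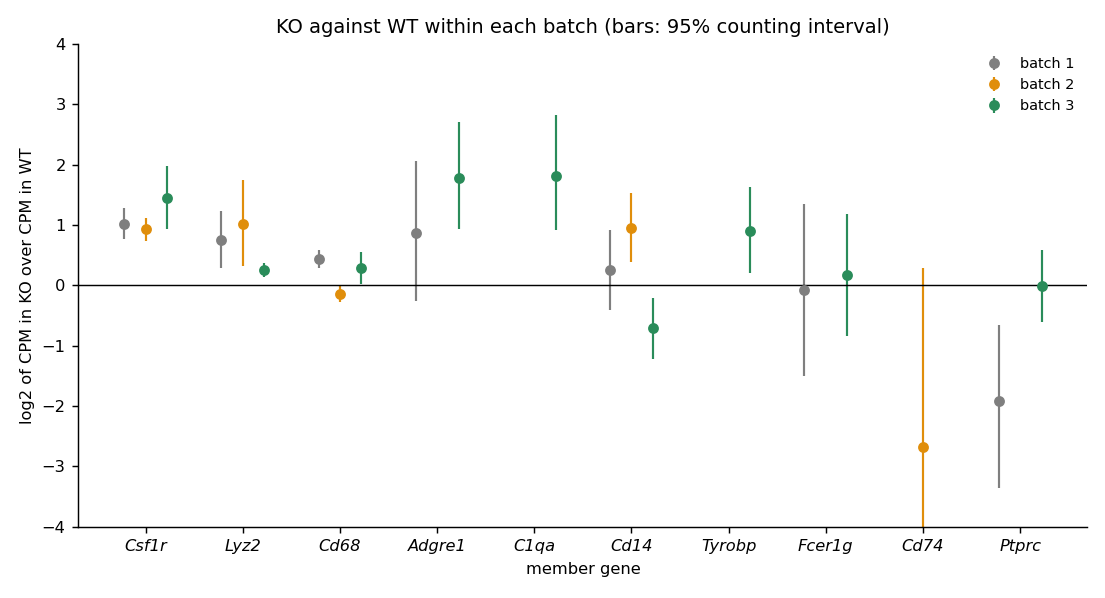
The log2 of the level in the KO culture over that in the WT culture of the same batch is plotted on the y axis for each marker gene on the x axis; points are single pairs of cultures (grey batch 1, orange batch 2, green batch 3) and bars are 95% counting intervals. Pairs with a library at 0 have no point, and the lower bar of Cd74 runs past the axis. The points of Csf1r lie at 1.02, 0.93 and 1.45, and Cd14 has batch 2 at 0.95 and batch 3 at -0.71.

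Of the 7 tested markers, 1 was higher in KO (Csf1r) and 0 were lower, while over all 14916 tested genes 2.17% were called higher and 1.95% lower. At an unadjusted p under 0.05, 2 markers were higher and 0 lower in edgeR. In either direction, 2498 of all 14916 tested genes had such a p. By adjusted p, DESeq2 also called 1 higher and 0 lower, of 4 that it tested. The median log2 difference of the 7 was 0.19, against 0.0057 for all tested genes. Among all 10, the KO culture was above its WT partner in each of the 3 batches for 4 genes, Csf1r, Lyz2, Adgre1 and Tyrobp, and below it in each batch for 0. For Adgre1 this took in 1 count against 0 in batch 2, and for Tyrobp 3 against 0 in batch 1, differences within counting error. Such an ordering was seen for 15.7% of 22134 genes with at least 10 counts upward and for 15.0% downward. For every one of the 10 the KO and WT ranges overlapped.

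For the other markers the difference between KO and WT did not pass the test. Lyz2 was higher in KO in each batch, by 1.68, 2.03 and 1.19 times, and the fitted log2 difference was 0.60 (SE 0.21, adjusted p = 0.179 in edgeR). Cd68 was higher in KO in batches 1 and 3, by 1.35 and 1.22 times, and was at 0.902 of WT in batch 2 (log2 difference 0.19, SE 0.17, adjusted p = 0.667). For Cd14, on the minus strand of chr18:36725067-36726798, the counts of the KO and WT cultures were 45 and 36, 74 and 42, and 57 and 89. KO was thus 1.93 times WT in batch 2 (counting interval 1.30 to 2.89) and 0.611 of WT in batch 3 (0.430 to 0.862), 2 intervals on opposite sides of 1, and the fitted difference was 0.16 (SE 0.52, adjusted p = 0.923).

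Between batches, 3 of the 7 tested markers differed in edgeR's test over all 3 batches, Csf1r (adjusted p = 0.000476), Lyz2 (6.5e-06) and Cd68 (0.000455), against 15.8% of all tested genes. In these markers batches 1 and 2 were close. By edgeR, 0 of 7 were called higher and 0 lower in batch 2 than in batch 1, where 0.168% and 0.322% of tested genes were. DESeq2 called 0 of 6. Without the filter on low counts, Lyz2 was called lower in batch 2 (edgeR, adjusted p = 0.00624). At an unadjusted p under 0.05 in edgeR, 1 of the 7 was higher (Csf1r, log2 difference 0.69) and 2 were lower (Lyz2, -1.21, and Adgre1, -4.91). In either direction, 1250 of all 14916 tested genes had such a p. Batch 3 differed from both. It was higher than batch 1 for 1 marker (Lyz2), where 5.26% of genes were called, and lower for 2 (Csf1r and Cd68), where 8.4% were. It was higher than batch 2 for 2 (Lyz2 and Adgre1), where 7.39% were, and lower for 2 (Csf1r and Cd68), where 10.1% were. These contrasts share the cultures of batch 3 and are not independent, and each batch is 1 pair of cultures.

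Csf1r fell in batch 3, by 2.01 (SE 0.27) on the log2 scale against batch 1 (adjusted p = 0.00119) and by 2.69 (SE 0.28) against batch 2 (adjusted p = 0.000197), or 4.02 and 6.46 times. With the condition term left out of the model, the first of these had an adjusted p of 0.105. Relative to Cd68, the level of Csf1r per kb was 0.0663 to 0.163 in batches 1 and 2 and 0.0466 to 0.104 in batch 3. Relative to Lyz2 it was 0.725 to 3.11 in batches 1 and 2 and 0.00881 to 0.0201 in batch 3, so Csf1r kept its ratio to Cd68 within a few times and did not keep its ratio to Lyz2.

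**Figure D3:**
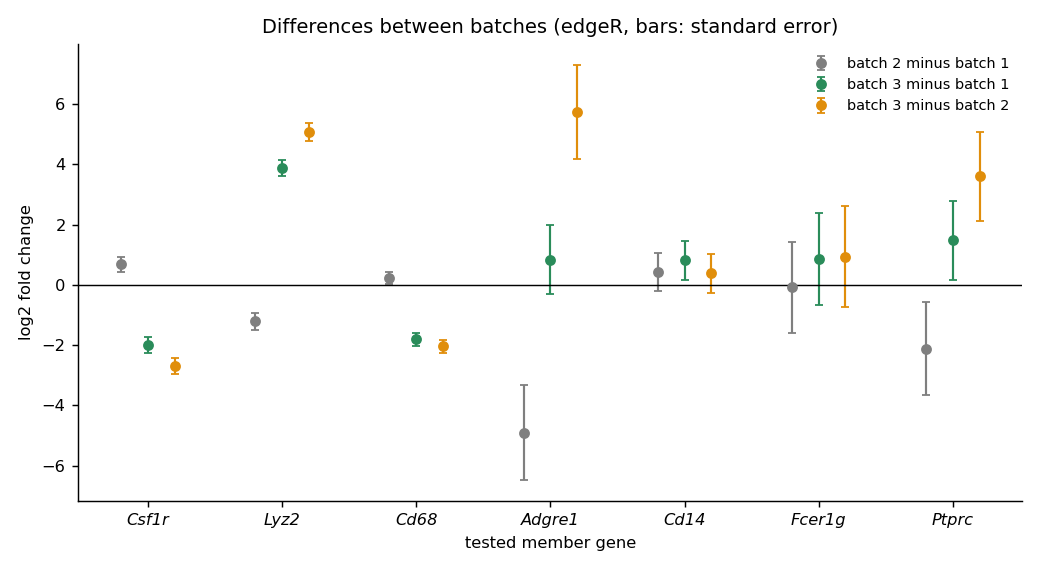
Fitted log2 fold changes between batches are plotted on the y axis for the 7 tested marker genes on the x axis; points are edgeR estimates (grey batch 2 minus 1, green batch 3 minus 1, orange batch 3 minus 2) and bars are standard errors. Lyz2 lies at 3.87 and 5.08 for batch 3 against batches 1 and 2, and Csf1r and Cd68 lie between -1.81 and -2.69.

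Adgre1 and C1qa, a receptor and a complement marker of macrophages, had at most 21 counts in each culture outside batch 3. Adgre1 (chr17:57358691-57483527, plus strand) had 21 and 11 counts in the KO and WT cultures of batch 1, 1 and 0 in batch 2, and 54 and 15 in batch 3. Batch 1 and batch 3 overlapped, and the gene was higher in batch 3 than in batch 2 by 5.74 (SE 1.56) on the log2 scale (adjusted p = 0.0307 in edgeR, or 0.0685 without the condition term). Within batch 3, KO was 3.43 times WT (counting interval 1.91 to 6.55), and the fitted difference over batches was 1.46 (SE 1.06, adjusted p = 0.569). C1qa (chr4:136895917-136898803, minus strand) had 48 counts in the KO and 13 in the WT culture of batch 3 and none in the other 4 libraries.

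C1qa was thus read only in batch 3 among these 6 libraries, at 2.04 and 0.578 CPM, where KO was 3.52 times WT (counting interval 1.88 to 7.09). Against 3 counts over both cultures of a batch, batch 3 was at least 19.4-fold higher than batch 1 and at least 20.6-fold higher than batch 2. The genes of the other 2 chains of C1q did not follow C1qa: C1qc had no count in any library, and C1qb had 1 count in the WT culture of batch 1 and 2 counts in the KO culture of batch 3. A protein of 3 kinds of chain is C1q's known make-up, and these counts are of RNA.

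Of the adaptor and surface markers, Tyrobp and Ptprc had both batch 3 cultures highest, and Fcer1g and Cd74 did not. Tyrobp (chr7:30413760-30417585, plus strand) had 3 and 0 counts in the KO and WT cultures of batch 1, 6 and 0 in batch 2, and 53 and 27 in batch 3. Summed over both cultures, batch 3 was 25.4 times batch 1 (counting interval 8.38 to 126) and 13.5 times batch 2 (5.95 to 37.9). Fcer1g (chr1:171229572-171234365, minus strand), the adaptor with the same role, had 10 and 10, 0 and 32, and 20 and 17 counts, so that batch 3 lay inside the range of the other cultures and the 2 cultures of batch 2 held its lowest and highest values. Its KO and WT values differed by a fitted log2 of -1.26 (SE 1.42, adjusted p = 0.743 in edgeR).

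Ptprc (chr1:138062861-138175708, minus strand) had 7 and 25 counts in the KO and WT cultures of batch 1, 8 and 0 in batch 2, and 50 and 48 in batch 3. Both batch 3 cultures were at 2.12 and 2.13 CPM, above the 1.17 CPM of the next culture, with KO at 0.994 of WT (counting interval 0.655 to 1.51). The difference from batch 2 was 3.60 (SE 1.47) with an adjusted p of 0.123 in edgeR and 0.0499 in DESeq2. Cd74 (chr18:60803848-60812652, plus strand) had 1 and 0, 1 and 7, and 0 and 8 counts, at or near the smallest countable level in every library. Within batch 1, KO was 0.266 of WT for Ptprc (0.0972 to 0.633), while in batch 2 KO was above WT.

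In all, both batch 3 cultures were above the other 4 for 4 markers (Lyz2, C1qa, Tyrobp and Ptprc) and below them for 2 (Csf1r and Cd68), and the other 4 overlapped. Over the 22134 genes with at least 10 counts, 15.4% had both batch 3 cultures above and 14.6% had both below. At least 10 counts in both cultures were reached by 6 markers in batch 1, 4 in batch 2 and 9 in batch 3.

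Among 35 other genes of macrophages and monocytes, 17 had both batch 3 cultures above the other 4 and 1 had both below. Over the 22134 genes with at least 10 counts the shares were 15.4% and 14.6%, while the 35 were not filtered by count. Of the 35, 6, 4 and 18 had at least 10 counts in both cultures of batches 1, 2 and 3. Of the 16 tested, 5 were higher in batch 3 than in batch 1 (Ctss, Fcgr3, Fcgr2b, Mpeg1 and Itgb2) and 4 higher than in batch 2 (Ctss, Fcgr3, Mpeg1 and Msr1), with 0 lower. Over all tested genes, 5.26% were higher and 8.4% lower in batch 3 than in batch 1. Against batch 2 these shares were 7.39% and 10.1%. The median log2 difference of the 16 was 2.29 and 3.13, against 0.0044 and 0.019 over all tested genes. Ctss, a protease of the antigen-presenting compartment, had 706 and 468 counts in the KO and WT cultures of batch 3 and 0 to 35 in the other 4. Fcgr3, an Fc receptor that signals through Fcer1g, had 150 and 109 counts in batch 3 and 2 to 12 elsewhere. All 7 fibroblast genes were also higher in batch 3 than in batch 1 and than in batch 2, and their part in these differences was not tested.

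Between KO and WT, 0 of these 16 genes were called in edgeR and 0 had an unadjusted p under 0.05. Their median log2 difference of KO from WT was 0.88, against 0.0057 over all tested genes, and was not tested as a set. DESeq2 called 0 of the 34 genes it fitted, counted whether or not it gave them an adjusted p. In DESeq2, 1 of the 34 had an unadjusted p under 0.05. The summed level of the 35 genes was 45.2 and 47.4 CPM in the KO and WT cultures of batch 1, 35.9 and 35.1 CPM in batch 2, and 119 and 73.8 CPM in batch 3. Spi1, which encodes PU.1, had 3 counts in the KO culture of batch 1 and 8 and 6 in batch 3. Itgam (CD11b) had 0 to 16 counts in batches 1 and 2 and 28 and 8 in batch 3, and Trem2, a receptor that signals through Tyrobp, had 13, 4, 0, 0, 12 and 17 counts in the order KO and WT of batches 1, 2 and 3.

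**Figure D4:**
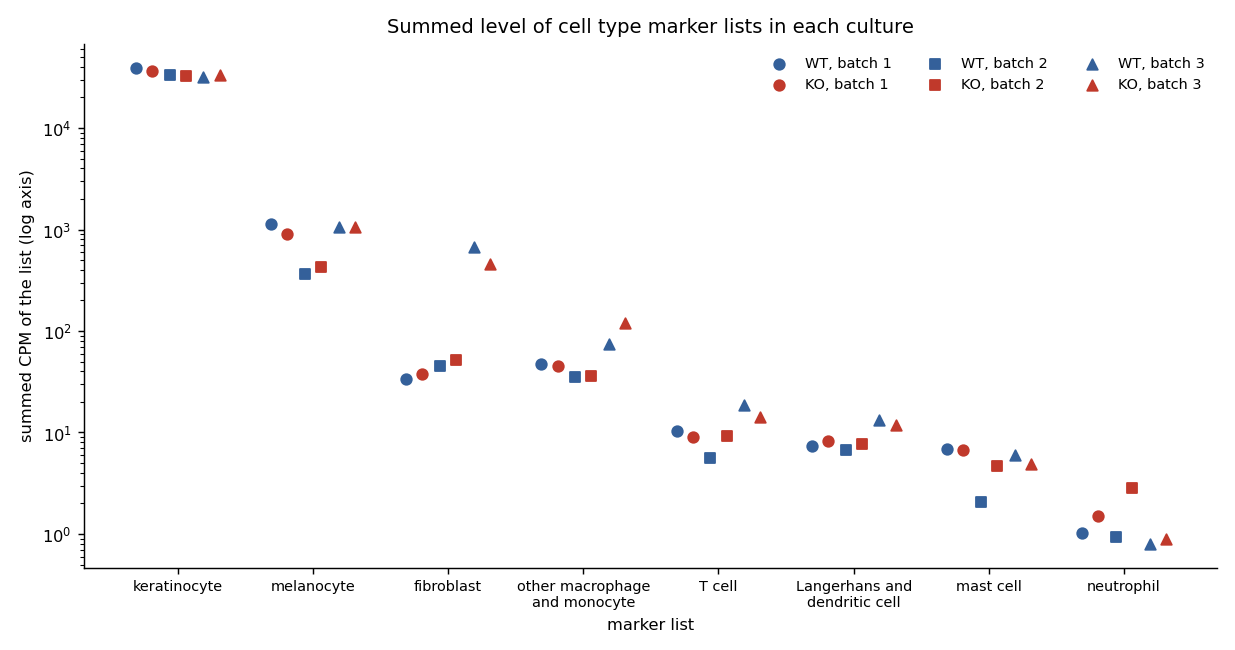
The summed CPM of 8 lists of cell type markers is plotted on a log axis, with blue for iASPP WT and red for iASPP KO cultures and circles, squares and triangles for batches 1, 2 and 3. The fibroblast list and the list of other macrophage genes have both batch 3 cultures above the other 4, at 459 to 673 CPM and 73.8 to 119 CPM, while the keratinocyte sum, led by Krt14, lies between 31639 and 39226 CPM.

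Several defining markers of other leukocytes were at 0, and other genes of the same lists had counts. Cd3e and Cd3d, chains of the T cell receptor complex, had no count in any library, nor did Ighm and Igkc of B cells, Ly6g and Elane of neutrophils, or Ms4a2 and Fcer1a of mast cells. Cd207 (langerin), the defining gene of Langerhans cells, had 6 and 3 counts in the KO cultures of batches 1 and 2 and none elsewhere, and Cd79a had 2 counts in each culture of batch 1. Trdc, of gamma delta T cells, had 42 and 48 counts in the KO cultures of batches 1 and 2 and at most 1 elsewhere, Cd5 had 50 to 120 counts, and Kit, of mast cells and also of melanocytes, had 39 to 145. The most abundant gene of the T cell list was Trbc2, with 225 and 311 counts in batch 3 and 31 to 77 in the other cultures, and it was higher in batch 3 than in batch 1 by 1.74 (SE 0.39, adjusted p = 0.0161 in edgeR). The summed level of the 14 Langerhans and dendritic cell genes was 6.72 to 8.18 CPM in batches 1 and 2 and 11.8 to 13.3 CPM in batch 3, led by H2-DMa.

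Genes that work with the markers were measured in the same libraries. Of the ligands of CSF1R, Csf1 had 3.38 and 4.44, 7.80 and 4.18, and 7.76 and 3.60 CPM in the KO and WT cultures of batches 1, 2 and 3 (log2 difference of KO from WT 0.55, SE 0.38, adjusted p = 0.538 in edgeR). Il34, which keratinocytes are known to make, was at 1.60 to 2.94 CPM in batches 1 and 2 and at 0.721 and 0.978 CPM in batch 3 (batch 3 against batch 1 -1.68, SE 0.73, adjusted p = 0.163). Of the 4 tested genes of this list, 0 were called between KO and WT in edgeR and 0 had an unadjusted p under 0.05. DESeq2 called 0 of the 5 it fitted, and 1 of them had an unadjusted p under 0.05. Neither ligand passed a test between batches.

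Of the receptors with which CD14 works, Tlr2 and Tlr4 had counts in all libraries, and Tlr1 and Tlr6 had at most 3 in any. Tlr2 was at 18.4 to 31.6 CPM and Tlr4 at 2.58 to 7.48 CPM, and of the 6 tested genes in the list 0 were called between KO and WT (edgeR and DESeq2), with 1, Tlr2, at an unadjusted p under 0.05. Syk, the kinase that Tyrobp and Fcer1g feed, was lower in KO than in WT in each batch, at 5.29 and 7.90, 4.62 and 10.6, and 5.98 and 11.2 CPM. Its log2 difference was -0.90 (SE 0.26) with an adjusted p of 0.0990 in edgeR, which did not pass. Of the partners of CD74, Mif, a cytokine that binds it, was at 70.7 to 130 CPM without a call, and the MHC class II genes H2-Ab1, H2-Eb1 and H2-Aa had at most 65, 16 and 1 counts in a library.

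Over 96 tested genes of the other lists, 5 were higher and 2 lower in KO, against 2.17% and 1.95% of all tested genes. Ctsl (cathepsin L), placed with the CD74 pathway because it can cleave the invariant chain, rose by 1.19 (SE 0.11, adjusted p = 0.00109 in edgeR), with 1266 to 2139 CPM in WT and 2775 to 4708 CPM in KO cultures, and is a lysosomal protease made by keratinocytes too. The lysosomal genes Ctsd and Grn rose by 0.65 (SE 0.11, adjusted p = 0.00980) and 0.79 (SE 0.13, adjusted p = 0.0115). The chemokine genes Ccl20 and Ccl2 rose by 2.13 (SE 0.26, adjusted p = 0.00282) and 1.16 (SE 0.19, adjusted p = 0.00955). The fibroblast collagen genes Col1a2 and Col3a1 fell by 0.55 (SE 0.13, adjusted p = 0.0428) and 0.87 (SE 0.18, adjusted p = 0.0269). Without the batch term, 0 of the 96 were called in either direction.

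The profile of Csf1r over the 6 libraries was compared with that of all tested genes, as the root-mean-square difference of mean-centred log2 CPM. The closest were Slc7a11 (0.111), a cystine transporter, Sprr1b (0.162), a protein of the cornified envelope of keratinocytes, Gm35439 (0.210), Gm41724 (0.222) and Tfcp2l1 (0.226), where the profile of Csf1r itself departed from its mean by 1.27. Slc7a11 was at 828 and 358, 1065 and 598, and 225 and 91.8 CPM in the KO and WT cultures of batches 1, 2 and 3, the same order of libraries as Csf1r. None of the 5 is in the macrophage list, but only 16 genes of that list were among the 14916 compared. That is too few for their absence to say which cells held Csf1r RNA. For Cd14 the closest were Tmem243 (0.109), 1700007K13Rik, Gm6728, Sfi1 and Pbx4 (0.151), against its own 0.449, and Cd74 was not in the test.

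The same measure was taken for Lyz2 and Cd68 after their values had been seen. The closest to Lyz2 were Mmp12 (0.585), the macrophage metalloelastase, Igsf10 (0.586), Col1a1 (0.729), a gene of the fibroblast list, Serpinf1 and Trf (0.739). The profile of Lyz2 itself departed from its mean by 2.17. Mmp12 was at 3.91 and 5.75, 3.18 and 1.15, and 115 and 34.1 CPM in the KO and WT cultures of batches 1, 2 and 3. Col1a1 was at 3.25 and 2.85, 3.23 and 3.11, and 34.7 and 68.0 CPM. The closest to Cd68 were Aloxe3 (0.0789), an epidermal lipoxygenase, Atp7a, Mab21l4, Mir7688 and Abcg1 (0.174), against its own 0.918. Aloxe3 was at 25.6 and 18.9, 26.8 and 25.1, and 6.70 and 5.33 CPM. Likeness over 6 libraries that share 3 batches is a description and carries no test.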

How the data were processed

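RNA depleted of ribosomal RNA was sequenced as single reads of 42 bases in 6 libraries of primary mouse keratinocytes. The authors trimmed adapters with Cutadapt, aligned reads to GRCm38 (mm10) with STAR and deposited raw counts per gene name over exons from featureCounts, without normalization. The versions in the submitters' processing notes are 2.10, 2.7.3 and 2.0.0. A second deposited table holds the authors' own DESeq2 comparison with moderated fold changes and p-values, and was not used. Tamoxifen is 1 µM in the study's methods and 1 mM in the labels.

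Counts were tested with edgeR 4.0.16 (R 4.3.3): filterByExpr by condition, TMM, glmQLFit and glmQLFTest with batch and condition, and Benjamini-Hochberg adjustment over 14916 genes at 0.05. The standard error is the absolute log2 fold change over the square root of F. Deviations from the condition means correlated at 0.302, 0.368 and 0.568 within batches and at -0.427 to 0.179 between them, so the shared batch numbers in the labels were kept as the pairing. Whether the batches came from separate animals is not stated, so p-values measure the spread between these cultures. Cultures of one condition differed far beyond sampling noise, so none was a copy. Ratios within a batch carry exact 95% intervals that leave out PCR and culture error, as reads had no molecular identifiers. Alternatives were DESeq2 1.42.0, other scalings and filters, robust dispersion, no batch or condition term, and each batch left out; a filter by batch was added after the data were seen. Fits were tested on simulated data.

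The 10 markers and all gene lists were chosen with earlier results of these data known. Named beside them are genes sharing a complex, ligand or paralog with a marker, list genes called in KO against WT, abundant list genes, and the 5 closest profiles. Others (among them Fcgr2b, Mpeg1, Msr1, Itgb2 and the genes closest to Lyz2 and Cd68) were named after their values were seen. A result on 1 gene of the macrophage list is not reported here. Positions are those of the count table, and read windows and gene identifiers came from GENCODE vM21 on the same build.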

Additional observations from a re-analysis of the deposited data

How the results depend on the processing

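Depth limits the markers Cd14, C1qa, Tyrobp, Cd74, Adgre1, Fcer1g and Ptprc, which had under 100 counts in every library, and 6 cultures leave 2 residual degrees of freedom. Without the batch block, 0 markers were higher in KO, against 1 with it, and 0 and 0 genes of the other lists were called higher and lower, against 5 and 2. Leaving out 1 batch at a time, 6 to 9 markers were tested and 0 to 1 were higher in KO. Over batches 0 to 5 differed, and between pairs of batches 0 to 5, with 0 in both cases when only batches 1 and 2 were left. The 5 were found without batch 1, where 1138 of 15437 genes were higher and 1506 lower in batch 3 than in batch 2. Over batches, 5 of 9 tested markers differed in DESeq2, where 2704 of 16455 genes did, against 3 of 7 in the main fit. Without a filter, 5 of 10 markers did, where 3340 of 31932 genes did. Those added without the filter were C1qa (edgeR adjusted p = 0.0114) and Tyrobp (0.0281). Differences with no call turned in sign: Ptprc, KO against WT, was -0.24 without the block, and Fcer1g, batch 2 against batch 1, was 0.52 without the condition term. With 1 batch left out, the log2 difference of KO from WT ran from -0.24 to 0.60 for Cd14, from -2.46 to 0.055 for Fcer1g and from -0.86 to 1.40 for Ptprc, with the opposite sign to the full fit without batch 2. The block changed no call of a marker other than Csf1r, and the cause of these changes was not tested. Scaling by DESeq2's size factors or the upper quartile, and robust dispersion, changed no call of a marker.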

Other observations

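Genes of the chemokine list differed between batches. Of 8 tested, 4 were higher in batch 3 than in batch 1 (Ccl2, Ccl6, Ccl7 and Ccl9) and 1 was lower (Ccl20). Over all tested genes 5.26% were higher and 8.4% lower. Against batch 2, 5 were higher (the same 4 and Cxcl14) and 1 was lower (Ccl20), where 7.39% and 10.1% of all tested genes were. Ccl6 had 980 and 351 counts in the KO and WT cultures of batch 3 and 2 to 51 in the other 4 (batch 3 against batch 1 5.18 on the log2 scale, SE 0.53, edgeR adjusted p = 0.000270). Ccl9 had 315 and 99 counts in batch 3 and 1 to 12 in the other 4. Ccl20, a ligand made by epithelial cells, was at 83.5 to 470 CPM in batches 1 and 2 and at 85.4 and 9.11 CPM in batch 3, so that its level in the KO culture of batch 3 lay inside the range of the others.

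Sparse genes of other lists also differed between cultures. Trdc, the constant region of the T cell receptor delta chain, had 42 and 48 counts in the KO cultures of batches 1 and 2, 0 and 1 in their WT partners, and none in batch 3. The beta globin gene Hbb-bs of red blood cells had 26 and 37 counts in batch 3, 3 in the WT culture of batch 2 and none in the other 3. Of the T cell list Cd5 had 50 to 120 counts in all 6 libraries, and Itgax (CD11c) had 68 and 26 counts in batch 3 and 1 in the other 4 together. These genes were named after their values were seen.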
